A study of Saccharomyces cerevisiae with 8 samples.

Results

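The genes described here belong to the yeast families UTP, RRP, NOP, DBP, NSA, RPF and IMP, named for work in the nucleolus and on ribosomal RNA (rRNA), together with NSR1, MAK5, DIP2, NIP7, GAR1, CBF5, NHP2 and EBP2. A gene was a member if its standard name was one of these family names followed directly by a number (the mitochondrial peptidase genes IMP1 and IMP2 left out) or one of the 8 extra names. The rule used names only and no measured value, but it was chosen with earlier results of these data known. It matched 77 identifiers. A value on some array existed for 73 of them, out of 5519 identifiers with a value in all. UTP10, RRP5, UTP14 and NOP16 had no value. IMP21 (YIL154C), a transcriptional activator with no known part in rRNA processing, met the rule by its letters alone, and the helicases DBP1 and DBP5 are known mainly for translation and messenger RNA export.

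Ribosomes are built in the nucleolus. RNA polymerase I makes a long precursor RNA, and the small-subunit processome, a large particle that includes the UtpA and UtpB subcomplexes and the IMP proteins, folds and cuts its small-subunit part while it is still being made. Small nucleolar ribonucleoproteins (snoRNPs) guide chemical changes: the box C/D class, with NOP1, NOP56 and NOP58, methylates ribose, and the box H/ACA class, with CBF5, GAR1, NHP2 and NOP10, turns uridine into pseudouridine. RNA helicases such as the DBP proteins remodel the particles, other factors assemble the large subunit, and the nuclear exosome trims and degrades RNA ends. In yeast these genes are known as a co-regulated set that is highly expressed in fast growth and lowered under many stresses.

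The series compared budding yeast of strain BY4741, a haploid laboratory strain, with a pif1 mutant of it (pif1::KanMX), devoid of a helicase that unwinds nuclear and mitochondrial DNA, and addressed the zinc tolerance of this mutant. Cultures in YPD, a rich medium, were kept at 28 °C until the A660 reached 0.6, and treated cells then received zinc chloride to 5 mM for 60 min. The 4 kinds of RNA (wild type or pif1, with or without zinc) were hybridised in pairs on 8 spotted 2-colour arrays, 2 per comparison with exchanged dyes. The comparisons were wild type with zinc over wild type, pif1 with zinc over pif1, pif1 over wild type without zinc, and pif1 over wild type with zinc. Per the labels, untreated cells on the zinc arrays had grown for the same extra 60 min as the treated cells, while cells on the mutant arrays without zinc were harvested at the A660 of 0.6, so these untreated RNAs differ in harvest time. Neither the number of mutant clones nor whether replicate numbers stand for separate cultures is given. The p-values therefore measure only the spread within pairs, pooled over these 8 arrays, which may be technical.

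Each value is a log2 ratio, taken as the RNA named first divided by the RNA named second and centred on each array's median, so a value of −1 is a 2-fold lower level relative to the typical transcript on that array. A ratio of this kind does not tell less of a transcript per cell from more of the others. A member was called where limma's adjusted p was under 0.05 across all identifiers tested in that comparison. The arrays held 4556 to 5119 identifiers each. On the mutant arrays the direction of the ratios was read from PIF1 itself, which lay at −4.90 and −3.72 as deposited on the mutant arrays of replicate 2, had placeholders on those of replicate 1 and no value on the zinc arrays. On the zinc arrays the direction is the likely one from the labels and from the zinc uptake transporters ZRT1 and ZRT2, chosen after their values were seen and known to be repressed by ample zinc. ZRT1 read −1.97 and −2.44 in the wild type and −1.78 and −2.15 in pif1, and ZRT2 −1.52, −1.88, −1.21 and −1.69 in the same order. Their sign is therefore no result, and every lower or higher after zinc rests on this reading. Between the 2 arrays of a comparison, r was 0.87 for wild-type zinc and 0.57 for pif1 zinc. For pif1 over wild type it was 0.59 without zinc and 0.44 with zinc. Arrays of different comparisons measure different contrasts, and r between them was as low as −0.365. That was wild-type zinc replicate 1 with pif1 over wild type without zinc replicate 2, across 4642 identifiers. Around the closed loop of 4 comparisons the ratios of 1 gene would sum to 0 if each RNA were the same throughout. By the labels the untreated RNAs differ in harvest time, so a sum away from 0 need not be an error. Over 3857 identifiers the SD of that sum was 0.496 with the labels as given and 0.389 with the 2 mutant comparisons exchanged, and over 65 members it was 0.381 and 0.318. The mutant arrays are therefore called by their labels, and the difference between the strains is also given from the zinc arrays alone.

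Most rRNA-processing transcripts were lower after zinc in the wild type. Of 70 members with a value on both wild-type zinc arrays, 45 were lower (64.3%), 1 was higher (NOP1) and 24 did not pass, against a background of 15.6% of 4635 identifiers lower and 14.7% higher. The median over the members was −0.75, and over all identifiers tested it was 0.00. Both arrays showed it: the member median was −0.83 on replicate 1 and −0.68 on replicate 2, and 66 members were below 0 on both. Over all identifiers tested 39.9% were below 0 on both arrays and 39.6% above. With a single array left to carry the comparison, assumed to vary like the other arrays, fewer members passed than the 46 called in either direction with both. Calls over all identifiers fell as well, so the loss is not particular to the members. Of the members named by role here, UTP4, NOP14 and RRP6 lost their call without replicate 1, and UTP15 and NHP2 with either array left out. UTP15 and NHP2 also lost it with the arrays scaled to 1 spread (adjusted p = 0.0534 and 0.131) or set to 1 distribution (0.0536 and 0.134), where 33 members passed under each.

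The pif1 mutant showed the same pattern with a wider spread between its arrays. Of 66 members tested, 38 were lower (57.6%), 1 was higher (again NOP1) and 27 did not pass, beside 15.8% of 4272 identifiers lower and 15.5% higher. The median was −0.76, against 0.01 over all identifiers tested. The 2 arrays differed: the member median was −1.0 on replicate 1 and −0.47 on replicate 2, and 14 members lay on opposite sides of 0. The SD within the pair, pooled over members, was 0.490 here and 0.208 on the wild-type zinc arrays. Over all identifiers it was 0.431 and 0.235, so the wider spread in pif1 is not particular to the members. The test shares a spread over all comparisons, so p-values in pif1 do not rest on the wider spread of that pair. The number called in either direction, 39, was 23 with the arrays scaled to 1 spread and 22 with all arrays set to 1 distribution. With the pif1 zinc arrays fitted alone it was 33. Fitted without the mutant arrays, 38 members passed in the wild type and 34 in pif1. Leaving out an array ended the pif1 call of RRP12 without replicate 1 (adjusted p = 0.3) and of NHP2 without replicate 2 (adjusted p = 0.153).

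**Figure D1:**
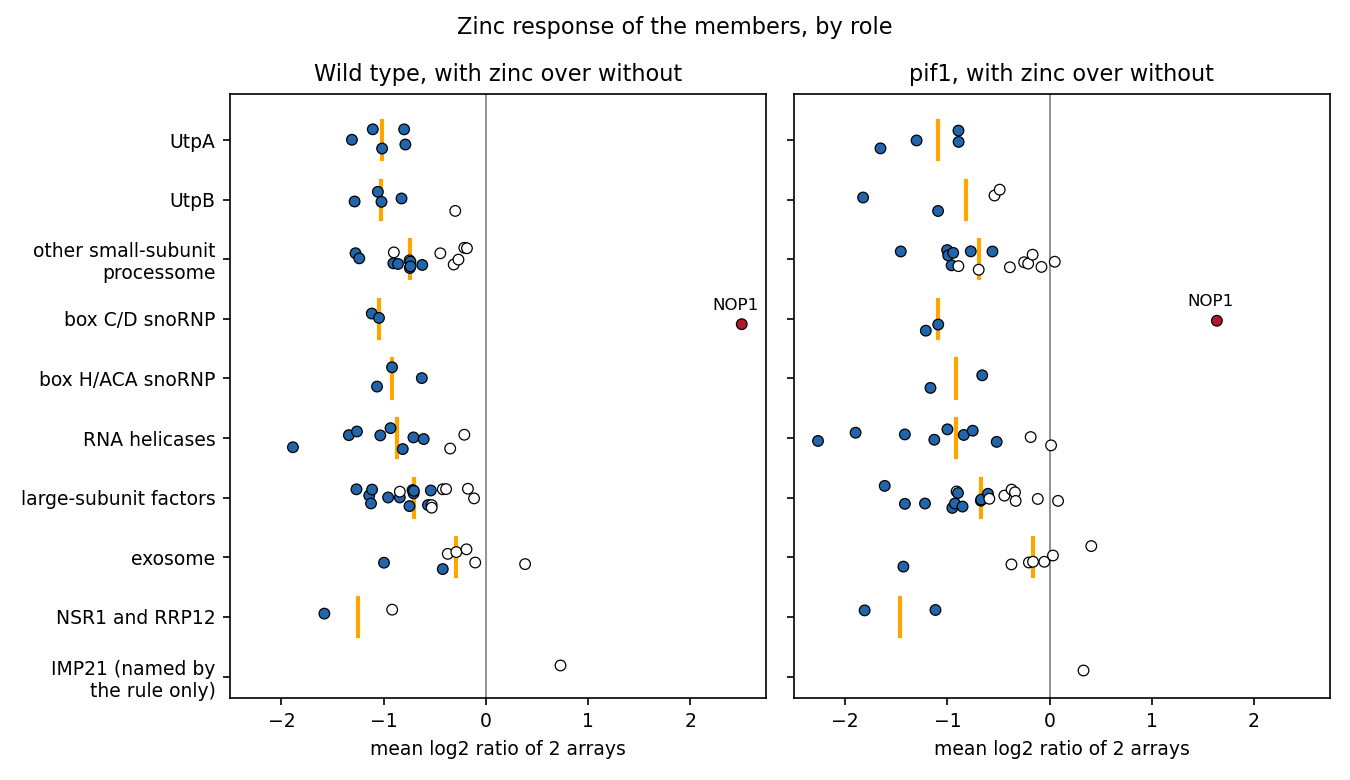
Mean log2 ratio of 2 arrays, with zinc over without, for each member tested in the wild type (left, 70 members) and in pif1 (right, 66), by role. Blue points were called lower, red higher and white points did not pass, and orange bars are role medians; nearly all points lie left of 0 in both panels, while NOP1 stands at 2.50 and 1.64.

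UtpA and UtpB are the parts of the processome that bind the precursor first. All 5 tested UtpA members were lower in the wild type and all 4 in pif1, with medians of −1.02 and −1.10. UTP4 (YDR324C) had the lowest UtpA mean in both strains: it read −1.52 and −1.11 on the wild-type arrays and −1.93 and −1.38 on the pif1 arrays. Each of these arrays showed it at least 2-fold lower, and the mean was −1.31 ± 0.29 (SD, n = 2, adjusted p = 0.00185), 2.48-fold lower, in the wild type and −1.65 ± 0.39 (n = 2, adjusted p = 0.000594), 3.15-fold lower, in pif1. UTP15 had the UtpA mean nearest to 0 in both strains, at −0.79 ± 0.02 (adjusted p = 0.00609) and −0.89 ± 0.16 (adjusted p = 0.00342).

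Of the UtpB members, 4 of 5 were lower in the wild type and 2 of 4 in pif1, with medians of −1.02 and −0.81. DIP2 (YLR129W, a WD-repeat protein) read −1.58 and −0.99 in the wild type and −1.87 and −1.78 in pif1. It was lower on all 4 zinc arrays, 2.44-fold in the wild type (adjusted p = 0.00129) and 3.54-fold in pif1 (adjusted p = 0.000254). UTP21 passed in neither strain, with means of −0.30 ± 0.18 (adjusted p = 0.279) and −0.49 ± 0.22 (adjusted p = 0.0915), although all 4 of its values were below 0. With the replicate number as a block it passed in pif1 (adjusted p = 0.0176), as did UTP6 (adjusted p = 0.019, and 0.115 without the block).

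Among the other processome proteins, which join the particle singly or in small modules, 8 of 15 were lower in the wild type and 7 of 15 in pif1, with medians of −0.74 and −0.69. UTP23 (YOR004W, which acts with an snoRNA in early cleavage) was the lowest of them in the wild type, at −1.24 and −1.31, and read −1.01 and −0.99 in pif1. Its arrays barely differed within a strain, and both means passed (adjusted p = 0.00033 and 0.00108). NOP14 (YDL148C), which links the IMP proteins and others in the processome, was the lowest in pif1, at −1.96 and −0.96, and read −1.52 and −0.96 in the wild type. At the other end, RRP9, a protein of the snoRNP at the heart of the processome, had means of −0.19 ± 0.07 (adjusted p = 0.435) and −0.17 ± 0.40 (adjusted p = 0.479). UTP11 had means of −0.32 ± 0.15 (adjusted p = 0.118) and 0.05 ± 0.10 (adjusted p = 0.809), the first of which passed with the replicate block (adjusted p = 0.0404). UTP30 had a value on 1 array only and was not tested.

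The box C/D snoRNP proteins split. NOP1 (YDL014W), the methyltransferase of these particles, read 2.54 and 2.46 on the wild-type zinc arrays and 1.74 and 1.54 on the pif1 zinc arrays. These were the highest values of any member on each of the 4 arrays. The means, 2.50 ± 0.06 (n = 2, adjusted p = 2.35e-05) and 1.64 ± 0.14 (n = 2, adjusted p = 0.000262), correspond to 5.67-fold and 3.11-fold higher levels. The proteins that hold NOP1 in the particle moved the other way. NOP58 (YOR310C) read −1.17 and −1.06 in the wild type and −1.32 and −1.10 in pif1, at least 2-fold lower on every zinc array (adjusted p = 0.000492 and 0.000338). NOP56 (YLR197W) had means of −1.05 ± 0.18 (adjusted p = 0.00102) and −1.09 ± 0.07 (adjusted p = 0.000821). Each gene is 1 row of the deposited table, so a second probe of NOP1, if there was any, cannot be read apart. Its neighbours in that table, chosen after the values were seen, stayed near 0 on the wild-type zinc arrays: SLX5 had a mean of −0.01 and TSC13 of 0.00. The rows run by locus tag, which need not be the order of spots, so a fault of the NOP1 spot was not tested.

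The box H/ACA members that could be tested, 3 in the wild type and 2 in pif1, were all lower. CBF5 (YLR175W), the pseudouridine synthase, read −1.16 and −0.97 in the wild type and −1.26 and −1.07 in pif1. The means were 2.09-fold and 2.24-fold lower (adjusted p = 0.00137 and 0.000862). NHP2 (YDL208W) was lower to a smaller degree, at −0.63 ± 0.27 (adjusted p = 0.0282) and −0.66 ± 0.31 (adjusted p = 0.0225). GAR1 was lower in the wild type, at −0.92 ± 0.02 (adjusted p = 0.00403). It had no value on pif1 zinc replicate 1 and read −1.17 on replicate 2. NOP10, a member with too few zinc values for a test in either strain, read −0.55 on pif1 zinc replicate 2. On the mutant arrays without zinc it read 0.23 and 0.18.

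RNA helicases held the lowest transcript of all. DBP2 (YNL112W), a DEAD-box helicase that acts in rRNA processing and on messenger RNA, read −2.03 and −1.75 in the wild type and −2.31 and −2.22 in pif1. These values are −1.89 ± 0.20 (n = 2, adjusted p = 2.83e-05), 3.70-fold lower, and −2.27 ± 0.06 (n = 2, adjusted p = 2.31e-05), 4.81-fold lower. MAK5 (YBR142W), a helicase of large-subunit assembly, followed with −1.47 and −1.21 in the wild type and −1.93 and −1.86 in pif1. Its level was 2.53-fold lower in the wild type (adjusted p = 0.000224) and 3.73-fold lower in pif1 (adjusted p = 5.53e-05). In all, 8 of 10 tested helicases were lower in each strain, with medians of −0.87 and −0.92. The same pair did not pass in either: DBP5, whose known role is messenger RNA export from the nucleus, at −0.21 ± 0.15 (adjusted p = 0.261) and −0.18 ± 0.19 (adjusted p = 0.324), and DBP7, a large-subunit helicase, at −0.35 ± 0.17 (adjusted p = 0.105) and 0.01 ± 0.25 (adjusted p = 0.948). DBP1, a helicase of translation, had values on 2 arrays and was not tested.

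Large-subunit factors were lower in 12 of 19 tests in the wild type and 10 of 18 in pif1, with medians of −0.71 and −0.67. NOP2 (YNL061W), an rRNA methyltransferase, was lowest in the wild type, at −1.45 and −1.09, a mean 2.41-fold lower (adjusted p = 0.000795), and had no value on pif1 zinc replicate 1. NOP7 (YGR103W), which works with ERB1 in early large-subunit particles, was lowest in pif1, at −1.72 and −1.51, and read −1.35 and −0.90 in the wild type. Its mean was 3.06-fold lower in pif1 (adjusted p = 0.000189) and 2.18-fold lower in the wild type (adjusted p = 0.000956). NSA1 had means of −0.12 ± 0.07 (adjusted p = 0.542) and −0.34 ± 0.17 (adjusted p = 0.0759). NOP8 had means of −0.18 ± 0.12 (adjusted p = 0.463) and 0.08 ± 0.42 (adjusted p = 0.739). These 2 genes, both factors of the large-subunit particle, mark the upper end of the group, and with the replicate block NSA1 passed in pif1 (adjusted p = 0.0412).

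The exosome subunits had the median closest to 0 among the role groups with more than 1 member. Of 7 tested, RRP6 and RRP46 were lower in the wild type and RRP6 alone in pif1, with medians of −0.29 and −0.16. These shares are 28.6% and 14.3%, beside 15.6% and 15.8% of all identifiers tested, so the pif1 share is near the background. RRP6 (YOR001W), the exonuclease found only in the nuclear form of the exosome, read −1.14 and −0.85 in the wild type and −1.78 and −1.08 in pif1. It was 2.00-fold lower in the wild type (adjusted p = 0.00536) and 2.69-fold lower in pif1 (adjusted p = 0.000969), and the other 6 subunits had medians of −0.24 and −0.11. RRP43, a subunit of the core ring, was above 0 on all 4 zinc arrays, with means of 0.38 ± 0.19 (adjusted p = 0.0885) and 0.41 ± 0.31 (adjusted p = 0.0718) that did not pass. With the replicate block the pif1 value passed (adjusted p = 0.0398).

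NSR1 (YGR159C), the yeast nucleolin-like protein, read −1.57 and −1.60 in the wild type and −1.58 and −2.04 in pif1. It was 2.99-fold lower in the wild type (adjusted p = 0.000146) and 3.50-fold lower in pif1 (adjusted p = 0.000102). RRP12, which acts in export of both subunits, had values of −1.25 and −0.58 in the wild type (adjusted p = 0.0569) and −1.83 and −0.40 in pif1 (adjusted p = 0.0276). On both pairs the array of replicate 1 was much the lower, and with the replicate block the wild-type value passed too (adjusted p = 0.00314). IMP21, the activator outside rRNA processing, had a mean of 0.72 ± 0.47 (adjusted p = 0.0774) and of 0.33 ± 0.87 (adjusted p = 0.395), and the first passed with the replicate block (adjusted p = 0.00986).

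Both strains were measured for 66 members, of which 35 were lower in both, 6 by the threshold in the wild type alone, 3 in pif1 alone and 21 in neither, with NOP1 higher in both. Over the 4086 identifiers tested in both, 9.54% were lower in both, 6.27% by the threshold in the wild type alone and 6.36% in pif1 alone, against 53.0%, 9.09% and 4.55% of the members. The 6 were NOP12, IMP3, IMP4, RRP46, UTP6 and NOP15, and the 3 were NOP19, RRP12 and RRP15, and this split rests on the threshold and not on a test of the difference. With the replicate block IMP4 (adjusted p = 0.0227) and UTP6 passed in pif1 too, and NOP19 (adjusted p = 0.045), RRP12 and RRP15 (adjusted p = 0.0489) in the wild type. At least 2-fold lower means were seen for 17 members in the wild type and 19 in pif1, 16 of them shared, which is 25.8%, 28.8% and 24.2% of the members against 3.13%, 4.45% and 2.13% of all identifiers. DBP2, MAK5, NSR1, NOP58 and UTP4 were at least 2-fold lower on all 4 zinc arrays. Of 66 members with a value on all 4 zinc arrays, 50 lay below 0 on each, and NOP1 and RRP43 lay above. Shares over all identifiers were not counted for these sides or for the 2-fold level on all 4 arrays. By the means, 89.4% of the members and 39.4% of all identifiers tested were below 0 in both strains.

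Member by member the strains ranked alike. Across the 66 members the mean responses correlated at Pearson's r = 0.893 and Spearman's rho = 0.885, where r was 0.815 over 4086 identifiers. The 2 comparisons share no RNA by their labels, but arrays of the same replicate number deviated together, so arrays of different numbers were also set against each other. Then r was 0.705 across 69 members (wild-type replicate 1 with pif1 replicate 2) and 0.762 across 66 (the other way), beside 0.685 and 0.594 over all identifiers. Without NOP1, the highest member, r was 0.635 across 68 members and 0.710 across 65, the first of which is below that over all identifiers. With NOP1, Spearman's rho was 0.659 and 0.673, beside 0.643 and 0.499 over all identifiers. Genes are not independent replicates, and these values describe the arrays.

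**Figure D2:**
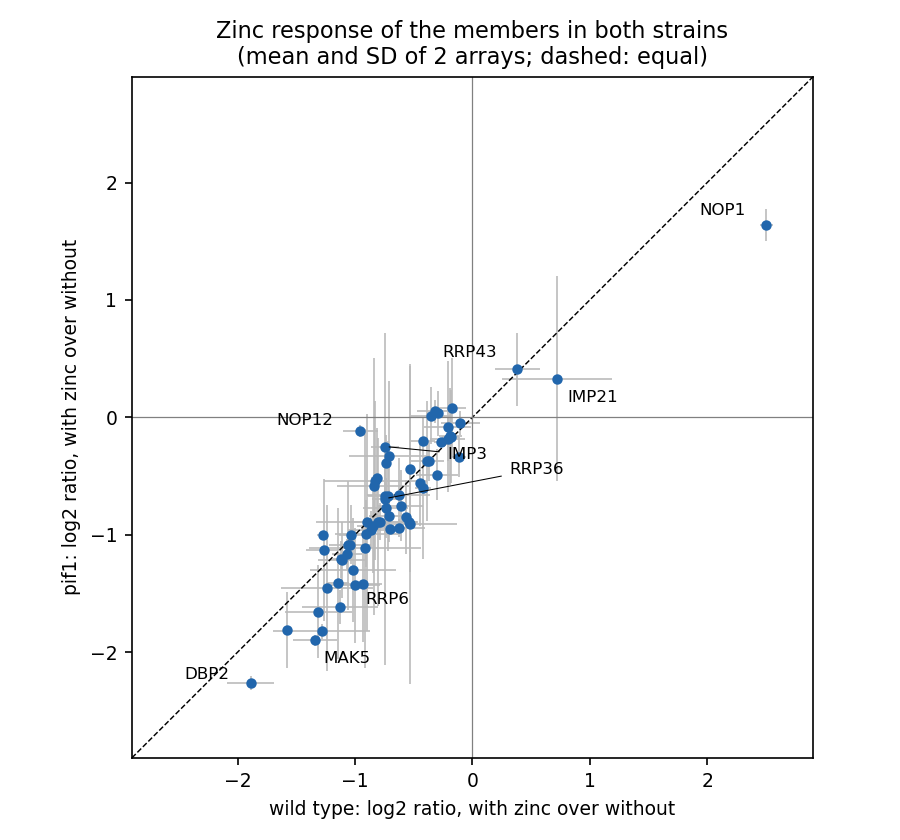
Zinc response of the 66 members measured in both strains, as log2 ratios with zinc over without, wild type on the horizontal and pif1 on the vertical axis. Points are means of 2 arrays, bars are SDs and the dashed line marks equal responses; 59 points lie below 0 on both axes, NOP1 lies far above and NOP12 lies to the left near 0 on the pif1 axis.

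On the mutant arrays labelled without zinc, 1 of 70 members passed, a share of 1.43% that is near the background of 1.44%. NOP12 (YOL041C), a nucleolar RNA-binding protein of large-subunit assembly, read 1.09 and 1.33 there, a mean of 1.21 ± 0.17 (n = 2, adjusted p = 0.00376). No member was lower, where 1.44% of 4722 identifiers were higher and 0.593% lower. The call on NOP12 was lost when either array was left out. Few or no identifiers of any kind passed in those fits, so the loss does not single out NOP12. The median over the members was −0.01, and 34 of them lay on opposite sides of 0 on the 2 arrays. On both arrays 21 were below 0 and 15 above, where 32.3% of all identifiers tested were below on both and 32.1% above. With the replicate number as a block, 2 members passed where 6.16% of identifiers did: NOP12 (adjusted p = 0.00149) and NOP1, which read −0.29 and −0.84, a mean of −0.56 (adjusted p = 0.0309, and 0.142 without the block). RPS15 and NGL1, beside NOP12 by locus tag and chosen after the values were seen, had means of −0.03 and 0.05 there. After zinc RPS15 had means of −0.77 in the wild type and −0.14 in pif1, and NGL1 of −0.12 and 0.08.

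On the mutant arrays labelled with zinc no member passed limma's test of 70, with 2 at an unadjusted p under 0.05, beside 0.988% of 4657 identifiers higher and 0.193% lower. The member means ran from −0.17 to 0.51 with a median of 0.07, against −0.01 over all identifiers tested. On both arrays 29 of the 70 members were above 0 and 5 below, where 27.6% of all identifiers tested were above on both and 28.9% below. The highest was IMP3, a processome protein that binds the precursor RNA, at 0.64 and 0.39 (adjusted p = 0.172), followed by RRP6 at 0.33 and 0.49 (adjusted p = 0.567) and DBP2 at 0.35 and 0.46 (adjusted p = 0.26). NOP12 stood at 0.32 and 0.23 (adjusted p = 0.584). IMP3, RRP6 and DBP2 were singled out after their values were seen.

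**Figure D3:**
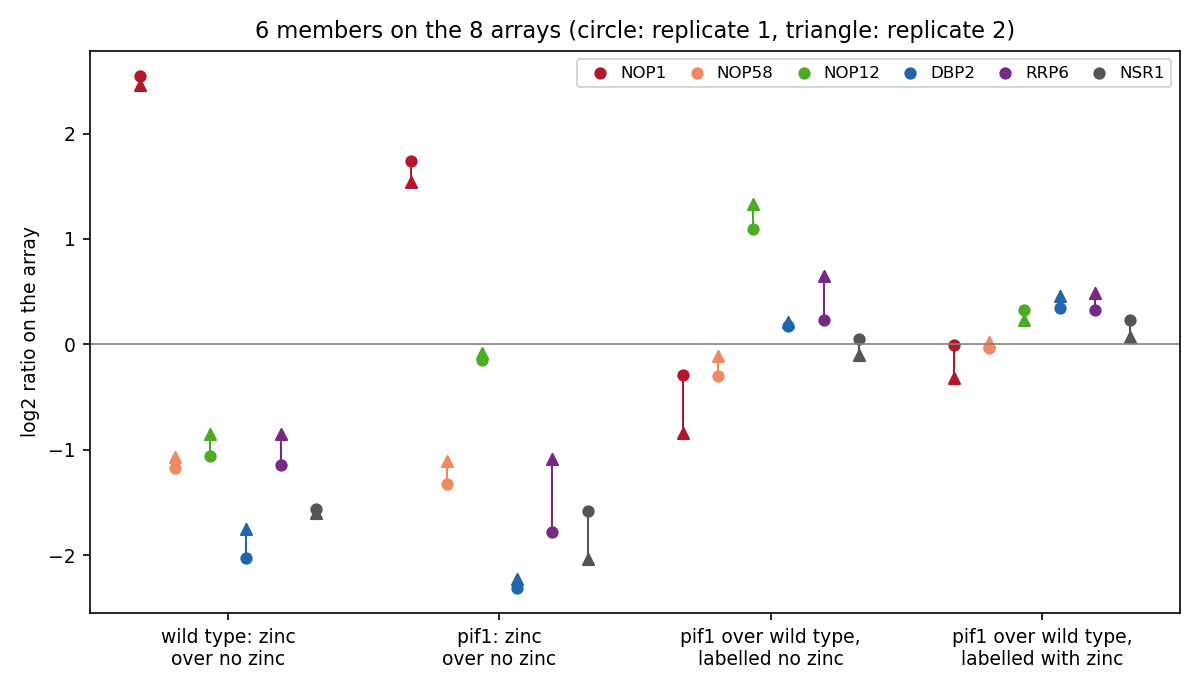
Log2 ratio of 6 members on each of the 8 arrays, circles for replicate 1 and triangles for replicate 2, by comparison. DBP2, NSR1, NOP58 and RRP6 lie below 0 and NOP1 above 0 on all 4 zinc arrays, and NOP12 lies at 1.09 and 1.33 on the mutant arrays labelled without zinc.

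How far the strains differ in their response to zinc can be read along 2 routes, from the zinc arrays (pif1 minus wild type) and from the mutant arrays (with zinc minus without). Averaged over both, no member of 65 passed limma's test, with 1 at an unadjusted p under 0.05, and 0% of 3857 identifiers passed. From the zinc arrays alone no member passed, with 5 at an unadjusted p under 0.05, beside 0.415% of identifiers. With the replicate block on the zinc arrays 2 of 65 members passed, near the background of 3.42% of identifiers. NOP12 differed by 0.84 (adjusted p = 0.0221): zinc read −1.06 and −0.85 for it in the wild type (adjusted p = 0.00117) and −0.15 and −0.08 in pif1 (adjusted p = 0.55). NOP1 differed by −0.87 (adjusted p = 0.0223), the rise being the smaller one in pif1.

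The routes did not match for these genes. NOP12 gave 0.84 on the zinc arrays and −0.94 on the mutant arrays, which average to −0.05, and NOP1 gave −0.87 and 0.40. Around the loop the ratios of NOP12 summed to −1.78 with the labels as given and to 0.10 with the mutant comparisons exchanged, and those of NOP1 to 1.27 and 0.47. Over the 65 members 30 differed in sign between the routes (46.2%), against 55.9% of all identifiers tested. The member medians were −0.04 on the zinc route and 0.13 on the mutant route. Which route describes the strains, and whether the labels of the mutant arrays or the harvest time of the untreated cells enter, was not tested.

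Other processome and subunit factors, which do not carry the family names, were also mostly lower. The lists of these and further pathway genes were written with earlier results of these data known, so they are no independent support. Over all identifiers tested, 15.6% were lower in the wild type and 15.8% in pif1. Of 34 other processome and small-subunit factors tested 26 were lower in the wild type, and 21 of 33 in pif1, with medians of −0.77 and −0.65. PRP43, a helicase of both subunits, had means of −1.33 (adjusted p = 0.000187) and −1.74 (adjusted p = 6.45e-05), NAN1 of UtpA −1.08 and −1.43 (adjusted p = 0.000754 and 0.000212), and ENP1 −1.01 and −1.13 (adjusted p = 0.00231 and 0.00129). Of 42 other large-subunit factors 35 were lower in the wild type, and 33 of 39 in pif1, with medians of −0.86 and −1.03. ERB1, the partner of NOP7, had means of −1.30 and −1.61 (adjusted p = 0.000338 and 0.000141), and ARX1, an export factor, −1.21 and −1.54 (adjusted p = 0.000498 and 0.000186). SDA1 had means of −1.19 and −1.69 (adjusted p = 0.0081 and 0.00148).

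Of the exosome subunits and partners under other names, 5 of 10 were lower in the wild type and 3 of 10 in pif1, with medians of −0.52 and −0.38. These shares are 50% and 30%, beside 15.6% and 15.8% of all identifiers tested. MTR4, the helicase that feeds the nuclear exosome, had means of −0.98 (adjusted p = 0.0269) and −1.04 (adjusted p = 0.0211). PAP2, its poly(A) polymerase partner, passed in pif1 at −0.86 (adjusted p = 0.0223) and stood at −0.58 in the wild type (adjusted p = 0.0905), and AIR1 at −0.60 (adjusted p = 0.0249) and −0.40 (adjusted p = 0.103). AIR2, named after its values were seen, rose in pif1, at 0.51. Of the nucleolar and snoRNP assembly factors 5 of 21 (23.8%) and 6 of 19 (31.6%) were lower, with medians of −0.13 and −0.28. They included SRP40, a nucleolar chaperone, at −1.53 and −1.46 (adjusted p = 0.000373 and 0.000482), FPR4 at −0.85 and −0.87 (adjusted p = 0.00336 and 0.00298) and POP1 at −0.66 and −0.79 (adjusted p = 0.0191 and 0.0083). Of the regulators of ribosome synthesis 3 of 9 (33.3%) were lower in the wild type and 3 of 7 (42.9%) in pif1. SCH9, a nutrient-signalling kinase, had means of −0.45 and −0.84 (adjusted p = 0.0476 and 0.00338) and RAP1, a factor at ribosomal protein genes, −0.46 and −0.73 (adjusted p = 0.0293 and 0.00398). HMO1 stood at 0.41 and 0.40 (adjusted p = 0.0815 and 0.0868). The other regulator called lower was TOD6 in the wild type, at −1.13 (adjusted p = 0.00422), which was not tested in pif1. In pif1 it was DOT6, at a mean of −0.74 (adjusted p = 0.0436), which stood at 0.08 in the wild type (adjusted p = 0.833). Its pif1 arrays were far apart, at −0.15 and −1.33. The list of regulators was not split into activators and repressors, so its counts give no direction for the pathway. TOD6 and DOT6 were named after their values were seen.

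Differences between the replicate arrays ran through the members in a shared way. The value of replicate 1 minus that of replicate 2 correlated between every pair of comparisons, at r = 0.575 to 0.700 over 65 to 70 members and 0.393 to 0.510 over all identifiers. Its median over the members was −0.12 and −0.27 on the zinc arrays of the wild type and pif1, and −0.16 and −0.06 on the mutant arrays without and with zinc, where over all identifiers it was 0.04, 0.08, 0.00 and 0.03. Replicate 1 carried the first-named RNA in Cy5 on the zinc arrays and in Cy3 on the mutant arrays, so the labelled dye orientation is opposite between arrays that deviate the same way. The members that parted most in pif1, singled out after their values were seen, were RRP36 (−1.69 and 0.31), NOP53 (−1.87 and 0.05) and RRP14 (−1.36 and 0.18), and none of the 3 passed in either strain. With the replicate block NOP53 passed in pif1 (adjusted p = 0.0176), and RRP14 in the wild type (adjusted p = 0.00735) and in pif1 (adjusted p = 0.0328).

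**Figure D4:**
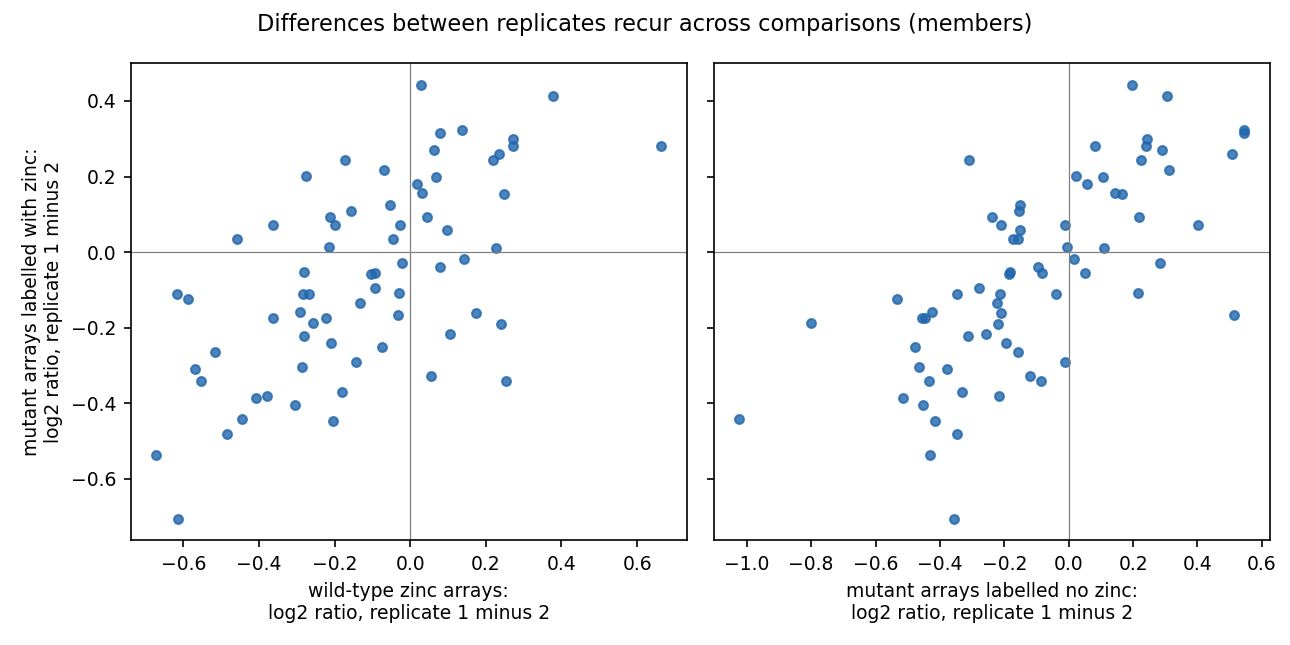
Replicate 1 minus replicate 2, as a difference of log2 ratios, for each member on the mutant arrays labelled with zinc (vertical) against the wild-type zinc arrays (left, r = 0.619 over 69 members) and the mutant arrays labelled without zinc (right, r = 0.700 over 70). Each point is 1 member, and in both panels the points run from lower left to upper right.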

How the data were processed

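The deposited values are log2 ratios in a single table, with a column for each array and a row for each identifier. Per the labels, 8 ug of total RNA was copied into labelled cDNA from an oligo(dT) primer, and spots under 120 um in diameter or below 100 fluorescence units were left out. The scanner, background correction, normalization, centring, log base and direction are not given in the sources used here: base 2 was taken from the size of the values, and direction from PIF1 on the mutant arrays and from the labels, ZRT1 and ZRT2 on the zinc arrays. PIF1 held 2 placeholders beyond 16 in size, which were set to missing.

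Names came from NCBI's R64 gene table by locus tag, which matched 5662 of 6212 identifiers. Array medians were set to 0. The test was limma 3.58.1 (R 4.3.3, lmFit and eBayes, two-sided), with 1 coefficient per comparison, a spread pooled over the 8 arrays and Benjamini-Hochberg adjustment over all identifiers with both values. The strain difference averaged both routes. The replicate numbers were taken as pairing arrays, because their deviations correlated above 0.1 in every pair of comparisons, and a fit with the number as a block was run beside the main one. Only 2 arrays stand behind each value, which limits the precision.

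Named members were, per role, the lowest and highest mean in each zinc comparison, the 6 lowest members, members called higher by zinc, members called in a mutant comparison or for the strain difference, and members with no test, plus up to 3 genes per list of other pathway genes. Members and lists were chosen with earlier results of these data known. The alternatives were other centrings and scalings, each comparison fitted alone, a dye term, the replicate block, fewer identifiers and single arrays left out.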

Additional observations from a re-analysis of the deposited data

Results flagged for a closer look

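The zinc response of NOP1 and NOP12 differed between the strains in the fit of the zinc arrays with the replicate number as a block: pif1 minus wild type was −0.87 for NOP1 (adjusted p = 0.0223) and 0.84 for NOP12 (adjusted p = 0.0221). Without the block neither passed (adjusted p = 0.13 and 0.0796), and 2 of 65 members is near the 3.42% of all identifiers called in the blocked fit. Both differences had the other sign on the mutant arrays, at 0.40 and −0.94.

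For 5 of 70 members (7.14%) both mutant arrays labelled with zinc lay above 0 and both labelled without zinc lay below 0, and the pattern of sides was not tested. This held for 3.96% of 4468 identifiers, and either order of the sides for 8.71% of them and for the same 7.14% of the members. With zinc minus without, it was 0.25 for RRP1 (0.249), 0.27 for RRP46 (0.273), 0.35 for NOP13, 0.44 for NOP8 and 0.26 for RRP15 (0.257). In limma's test of with zinc minus without on the mutant arrays, over 3857 identifiers, none of these genes passed. Groups of 2 arrays are too small for a test of single outlying arrays.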

How the results depend on the processing

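With single arrays left out, the members called ran from 17 to 25 (from 46) for zinc in the wild type, from 33 to 48 (from 39) in pif1, stayed at 0 for pif1 over wild type without zinc (from 1) and with zinc, and ran from 0 to 1 for the strain difference, where RRP36 passed without pif1 zinc replicate 1. Other genes of the pathway called lower, 74 in the wild type and 66 in pif1, ran from 22 to 30 and from 50 to 65. RRP36 read −1.69 and 0.31 on pif1 zinc replicates 1 and 2. Without replicate 1 its pif1 zinc value rests on the 1 array where it lay above 0. Its strain difference averaged over routes was 0.60 in that fit and 0.10 with all arrays. Identifiers outside the members also passed in that fit, so the call does not single out RRP36. Scaled to 1 spread, or set to 1 distribution, the wild-type zinc count was 33 under each, the pif1 zinc count 23 or 22, pif1 over wild type without zinc 2 and 2 (NOP12 and NOP1), with zinc 2 and 2 (IMP3 and DBP2, both higher), and the other pathway genes 43 or 44 in the wild type and 31 or 27 in pif1. With each comparison fitted alone, pif1 over wild type gave 3 without zinc (NOP12, NOP1 and RRP6) and 1 with zinc (IMP3), and the other pathway genes 42 in pif1.

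With the replicate block 55 members were called for wild-type zinc and 49 for pif1 zinc, 2 and 0 members for pif1 over wild type without and with zinc, and 0 for the strain difference averaged over routes. It ended no call made without it, and the calls it added are given with the results except those of RRP4, UTP25 and RPF1 in both strains. From the zinc arrays alone with the block, fitted with or without the mutant arrays, 2 members passed for the strain difference (an alternative chosen after seeing the data), and NOP12 stood at 0.84, the reverse of its average over routes (−0.05).

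Over all identifiers, those called in the order wild-type zinc, pif1 zinc, pif1 over wild type without and with zinc were 1403, 1338, 96 and 55. They were 713, 413, 440 and 371 scaled to 1 spread, 690, 420, 435 and 317 set to 1 distribution, 1944, 526, 592 and 267 fitted alone, and 1978, 1915, 291 and 122 with the block. Causes of these changes were not tested. The planned look at promoter motifs was not run, and promoters are not analysed here.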
